A study of Mus musculus with 6 samples.

Results

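The genes described here are those for the proteins of the cytosolic ribosome. A gene was taken if its symbol began with Rpl or Rps and a digit, or was Rpsa, Rplp0, Rplp1 or Rplp2, and names with -ps and the Rps6k kinases were left out. This gave 86 of the 28048 genes in the count matrices. Of these, 46 encode proteins of the large subunit and 31 encode proteins of the small subunit, and these 77 are called core genes below. Another 8 are paralogs of core genes, and the last, Rps19bp1, encodes a protein that binds a ribosomal protein and is not itself a part of the ribosome. Fau and Rack1 encode ribosomal components whose names the rule does not take, and they were followed separately.

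The study asked how the timing of Bcl11b activation affects the choice between the T-cell and innate lymphoid fates. WT progenitors carried 2 YFP-tagged copies of Bcl11b, and ΔTE progenitors carried 2 YFP-tagged copies from which the distal timing enhancer had been deleted, so that the reporter was shared by both genotypes. Progenitors were derived from bone marrow pooled from several adult mice per batch, sorted as DN1, DN2a (Bcl11b-negative) or DN2b (Bcl11b-positive) cells, and cultured again for 4 days on OP9-DL1, a mouse stromal line that presents a Notch ligand. Transcripts were counted by sci-RNA-seq3, which marks fixed cells or nuclei by rounds of barcoding, and the labels give the molecule as nuclear RNA. Each of the 6 combinations of genotype and start was 1 library. Barcode names divided each library into 3 sets, read here as reverse-transcription wells; the labels do not describe them, and they were used as parts of a library and not as replicates. No condition had a replicate library, so that single conditions were compared without a test, and every interval below is an exact 95% interval that covers counting error only. The genotypes could be paired by start, and the test of those 3 pairs is given after the genotype comparisons.

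A ribosome consists of a small subunit that reads the mRNA and a large subunit that joins amino acids. Its proteins are needed in nearly equal numbers, and their mRNAs are among the most abundant of growing cells. Most of these mRNAs start with a run of pyrimidines (the TOP motif), through which their translation is tied to nutrient signals. Many ribosomal protein genes have processed pseudogenes, so that reads from a short stretch can match several places in the genome.

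In all, 60671 cells passed the filters (at least 200 genes, at most 2000 UMIs, at most 30% mitochondrial UMIs), from 3401 in ΔTE DN2b to 19489 in WT DN2a, and no kept barcode occurred in more than 1 library. Kept cells held 1314567 to 7773877 UMIs per library outside mitochondrial genes, with medians of 386 to 485 UMIs per cell. Mitochondrial genes took 14.1% of the UMIs in WT DN2a and 21.3% to 23.4% in the other libraries. Bcl11b, the targeted locus, stood at 302 CPM (counts per 1000000 UMIs without mitochondrial genes) in WT DN1 and 115 in ΔTE DN1. It stood at 622 in WT DN2a and 326 in ΔTE DN2a, and at 1104 in WT DN2b and 704 in ΔTE DN2b, so that it was lower in ΔTE at every start. T-cell markers (Cd3 chains, Rag1, Rag2 and others) summed to 114 to 163 CPM in the DN1 libraries, 428 to 570 in the DN2a libraries and 1032 to 1073 in the DN2b libraries. Stromal markers summed to 255 to 1917 CPM over the libraries.

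Sequences around the transcription start are shown for 3 core genes whose start holds the letters CTTTCC, a short stand-in for a pyrimidine run. These had the most UMIs among the 9 such core genes considered, and genes on a single chromosome were left out of the choice. Sequences are also shown for 2 genes with their paralogs. Each stretch runs from 15 bases before the start to 15 bases from it, 5′ to 3′ on the gene's strand, from RefSeq on GRCm38.p6, with CTTTCC in capitals; Rpl22 is shown at the first of its 2 listed starts.
Rpl18, chr7:45718056-45718085, plus strand: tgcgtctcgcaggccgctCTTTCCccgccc
Rpl28, chr7:4792950-4792979, plus strand: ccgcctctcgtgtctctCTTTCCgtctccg
Rpl38, chr11:114668565-114668594, plus strand: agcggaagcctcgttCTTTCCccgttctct
Rps27, chr3:90213634-90213663, minus strand: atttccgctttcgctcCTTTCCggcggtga
Rps27rt, chr9:114982725-114982754, minus strand: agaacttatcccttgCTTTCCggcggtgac
Rpl22, chr4:152325711-152325740, plus strand: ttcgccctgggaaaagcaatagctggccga
Rpl22l1, chr3:28805493-28805522, plus strand: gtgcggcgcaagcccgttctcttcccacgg

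Of the 86 genes, 66 had a promoter entry in RefSeq, among them 57 core genes. CTTTCC lay between 15 bases before and 30 bases after the start in 10 of these 57 (17.5%). It was found there in 2.49% of all 27025 genes with an entry when the gene's own strand was read, and in 4.88% when both strands were read. The count for core genes was 10 either way. CCGGAAG, a core of sites for ETS factors, was found on either strand of the 300-base promoter in 42.1% of core genes and 9.93% of all genes. GCCATNTT, a core of YY1 sites, was found there in 19.3% and 6.96%. TATAAA was found in the 50 bases before the start in none of the 57 core genes and in 3.15% of all genes on the gene's strand (4.17% on either strand). These are matches of letters and not measured sites.

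Ribosomal protein genes took between 2.35% and 3.20% of non-mitochondrial UMIs in a library. The share was 2.35% in WT DN1, 2.92% in WT DN2a and 2.62% in WT DN2b. It was 2.55% in ΔTE DN1, 2.97% in ΔTE DN2a and 3.20% in ΔTE DN2b. Over 99.5% of kept cells in every library held at least 1 UMI of these genes, and the median cell held 9 to 11. Kept cells with at least 300 UMIs outside mitochondrial genes were each thinned to 300 such UMIs, and shallower cells were left out of thinned values. This left 7226 of 10925 cells in WT DN1, 11715 of 19489 in WT DN2a and 1996 of 3401 in ΔTE DN2b. For DN1, DN2a and DN2b starts, 20.4%, 36.4% and 29.4% of thinned WT cells held 10 or more ribosomal protein UMIs. The values for thinned ΔTE cells were 26.2%, 38.4% and 46.6%.

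**Figure D1:**
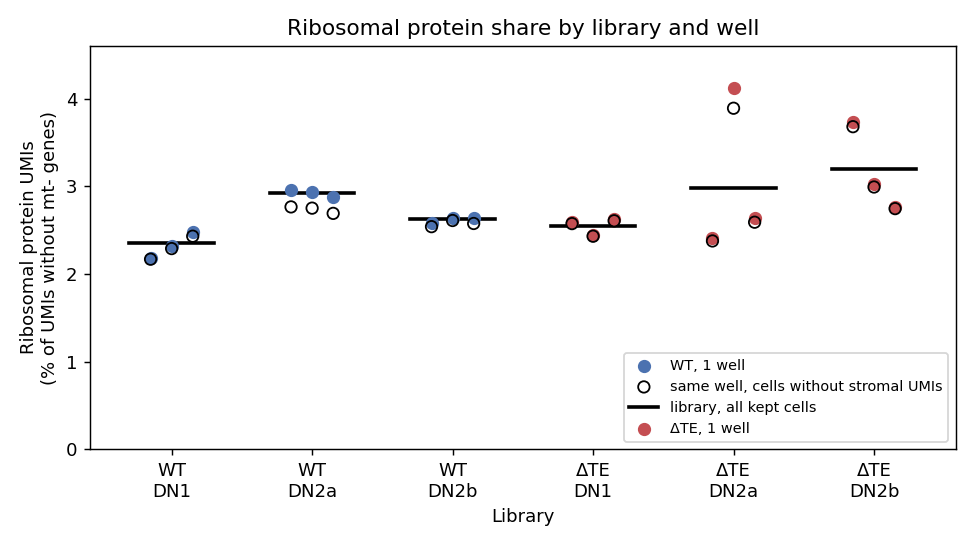
Ribosomal protein UMIs as a percentage of UMIs without mitochondrial genes (vertical axis) in each library (horizontal axis). Filled points are the 3 wells of a library, open points are the same wells with only cells that hold no stromal marker UMI, and lines are the library values. Well 2 of ΔTE DN2a, at 4.12%, lies above its other wells at 2.41% and 2.63%.

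Among single genes, 10 core genes held the most UMIs over the 6 libraries. Among them were Rpl4, Rplp1, Rpsa, Rpl14, Rpl32, Rpl8, Rplp0 and Rps20. Rpl4, a large-subunit protein, stood at 834, 1071 and 977 CPM in WT DN1, DN2a and DN2b and at 938, 1042 and 1094 CPM in ΔTE DN1, DN2a and DN2b. Rplp1, which forms part of the stalk of the large subunit that recruits elongation factors, stood at 866, 970 and 862 CPM in WT and 944, 1052 and 1182 CPM in ΔTE, in the same order. Both were lowest in WT DN1 or WT DN2b and highest in ΔTE DN2b.

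Divided by the length of the longest coding transcript in GENCODE M21, the levels of core genes spread widely. Whether UMI counts rise with transcript length here was not tested, so that levels per kb need not follow numbers of molecules. The median over libraries was 1918 CPM per kb for Rplp1. At the other end it was 33.3 CPM per kb for Rpl5, 30.7 for Rpl15 and 16.6 for Rpl10, which encodes a protein that joins the large subunit late. Of the 50-base stretches of the Rpl10 transcript, 85.4% also occur in transcripts of other genes, the closest being Rpl10-ps3, so that its count is uncertain. Such stretches were found in 76 of 77 core genes, with a median of 43.9% of a transcript. The 28 core genes above 50% had a median level of 279 CPM per kb and the other 49 had 277. With limits of 10% and 90%, the 70 genes between them had a median of 289 CPM per kb, the 7 genes below had 206, and no gene lay above. Whether shared reads were counted is not given in the sources used here.

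In median CPM over the libraries, the paralogs stood below their partners. Rpl22l1, a paralog of the RNA-binding protein Rpl22, stood at 56.7, 73.6 and 67.5 CPM in WT DN1, DN2a and DN2b and at 68.5, 87.4 and 86.0 CPM in ΔTE. Its median over libraries was 71.1 CPM, beside 214 for Rpl22. Only after division by length was the order opposite, at 129 and 105 CPM per kb. Rps27l stood at 137 to 148 CPM in the 6 libraries and Rps27 at 152 to 237. Per length these 2 had medians of 247 and 416 CPM per kb. Rps27rt, which shares 91.1% of its 50-base stretches with Rps27, had 20 UMIs over all libraries. Rpl3l had 25, Rpl39l 10 and Rpl10l 2, whereas Rpl36al held 2185 and Rpl7l1 2039. Rps19bp1 stood at 25.9 to 29.3 CPM in every library.

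In WT, the share was higher after the DN2a start than after the DN1 start, by 0.31 on the log2 scale (interval 0.30 to 0.32), or 1.24-fold. All 9 pairs of wells had this direction. Counting a gene as past the fold at a ratio over 1.2 with at least 200 UMIs in both libraries together, 52 of 81 tested ribosomal protein genes were higher and 0 lower, beside 18.4% of all tested genes higher and 17.1% lower. Their median log2 ratio was 0.31, and the median of all genes was −0.020. Large-subunit (median 0.31) and small-subunit genes (0.33) had alike medians. Rpl37 had the highest ratio, at 23.4 CPM in WT DN1 and 38.8 in WT DN2a (log2 0.73, 0.41 to 1.06). Rps12 stood at 531 and 747 CPM (log2 0.49). Rpl7l1 had the lowest, at 83.6 and 73.3 CPM (log2 −0.19, −0.38 to 0.00066).

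Genes for ribosome biogenesis and translation factors had other medians in this comparison. Of all tested genes, 18.4% were higher and 17.1% lower past the fold. Of 36 genes for ribosome biogenesis, 1 was higher and 6 were lower, the latter near the share of all genes. Their median was −0.14, against −0.020 for all genes. Nop56, a protein of small nucleolar particles, was lowest, at 234 CPM in WT DN1 and 173 in WT DN2a. Of 34 translation factors, 6 were higher, near the share of all genes, and 3 lower, with a median of 0.14. The elongation factor Eef2 had the highest ratio, at 1213 and 1687 CPM. Fau and Rack1 had log2 ratios of 0.56 and 0.33, both past the fold. Of 73 tested mitochondrial ribosomal protein genes, 8 were higher and 7 lower.

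The 2 WT libraries also differed in their mitochondrial share and in stromal cells. WT DN2a had 14.1% mitochondrial UMIs and 8.39% of its cells in the stromal marker group, against 22.4% and 2.04% in WT DN1. Within cells of over 10% to 20% mitochondrial UMIs the ribosomal protein share was 2.31% in WT DN1 and 2.78% in WT DN2a, and above 20% it was 2.33% and 2.98%. At 10% or below the order was opposite, with 3.23% over 351 cells and 3.06% over 7262 cells. Without the stromal group the log2 ratio was 0.25.

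After the DN2b start the WT share was lower than after the DN2a start, by 0.15 on the log2 scale (interval of the log2 ratio −0.17 to −0.14), in all 9 pairs of wells. Past the fold, 1 of 81 genes was higher and 16 were lower, beside 8.76% and 16.1% of all tested genes, so that the share of genes lower (16 of 81) was near that background. The median was −0.14 against −0.017 for all genes. Rps12 had the lowest ratio, at 747 CPM in WT DN2a and 506 in WT DN2b (log2 −0.56, −0.66 to −0.47). Its wells stood between 743 and 750 CPM in the first library and between 496 and 530 in the second. Rps12 was picked as the lowest of 81 ratios, and wells are parts of 1 library. It was also the gene with the highest ratio in stromal cells (log2 1.51). The part of stromal cells in its difference was not tested. Rpl7l1 was the gene past the fold in the other direction (log2 0.31). The stromal group made up 8.39% of cells in WT DN2a and 3.08% in WT DN2b, and mitochondrial genes took 14.1% and 22.5% of UMIs. The log2 ratio of the shares was −0.090 without the stromal group, −0.081 in cells on no lineage list, −0.044 with no limit on mitochondrial UMIs and −0.0011 in cells with at most 10% mitochondrial UMIs.

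For ΔTE against WT, the values differed between starts. After the DN1 start the share was higher in ΔTE by 0.12 on the log2 scale (0.11 to 0.13), in 8 of 9 pairs of wells. Past the fold, 4 of 81 genes were higher and 0 lower, beside 6.7% and 6.34% of all tested genes, a share near the background. The median was 0.12, against 0.0023 for all genes, and 78 of 81 ratios lay above 0. Rpl35 had the highest ratio, at 33.3 CPM in WT and 42.1 in ΔTE (log2 0.34, 0.026 to 0.65). Rps6, a target of growth-signal kinases, stood at 130 and 161 CPM (log2 0.30, 0.15 to 0.46). Rpl5, which binds 5S rRNA, had the lowest, at 70.5 and 65.2 CPM (log2 −0.11, −0.34 to 0.12). Rpl37 (log2 0.31, −0.067 to 0.69) was also among the highest, and Rpl38 (−0.086, −0.21 to 0.038) and Rps19 (−0.035, −0.12 to 0.053) were among the lowest, with intervals that include 0. Among biogenesis genes the ratios ran from −0.42 for Nop14 to 0.35 for Rrp12, with 2 of 36 higher and 1 lower, and among translation factors from −0.22 for Eif2s3x to 0.28 for Tpt1, with 1 of 34 higher and 0 lower. Fau and Rack1 had 0.19 and 0.095. Cells of the NK and innate lymphoid list made up 12.0% of WT and 16.7% of ΔTE cells, and the stromal list summed to 480 and 255 CPM. In cells with at most 10% mitochondrial UMIs (351 and 526 cells) the log2 ratio of the shares was −0.40.

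After the DN2a start the ratio was 0.027 (0.018 to 0.037), and 3 of 9 pairs of wells lay above 0. Past the fold, 2 of 82 genes were higher and 0 lower, beside 7.72% and 12.1% of all tested genes. Rpl13a stood at 163 CPM in WT and 204 in ΔTE (log2 0.32, 0.20 to 0.44), and Rps3a1 at 137 and 170 CPM (log2 0.31, 0.17 to 0.44). Rpl37 (log2 −0.14, −0.42 to 0.13) and Rps10 (−0.13, −0.28 to 0.012) were among the lowest, with intervals that include 0. Biogenesis genes ran from −0.26 for Rrp9 to 0.29 for Myc and translation factors from −0.25 for Eif3a to 0.23 for Eif3i. Fau and Rack1 had −0.0026 and 0.0019. Without well 2 of the ΔTE library the ratio of the shares was −0.23, and without its well 1 it was 0.25. The direction between genotypes after this start therefore rested on single wells. Cells of the NK and innate lymphoid list made up 14.2% of WT and 22.8% of ΔTE cells, the stromal group 8.39% and 5.25%, and mitochondrial genes took 14.1% and 21.3% of UMIs. The log2 ratio was 0.050 without the stromal group.

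After the DN2b start the share was higher in ΔTE by 0.28 (0.27 to 0.30), or 1.22-fold, in 9 of 9 pairs of wells. Past the fold, 42 of 77 genes were higher and 0 lower, beside 13.7% and 12.3% of all tested genes. The median was 0.28 and that of all genes 0.0047. Rpl36a, a large-subunit gene, had the highest ratio, at 128 CPM in WT and 199 in ΔTE (log2 0.63, 0.38 to 0.88). Its wells stood at 123, 107 and 143 CPM in WT and at 293, 149 and 141 CPM in ΔTE, so that the groups overlapped and well 1 of ΔTE was high. Rpl37a followed at 118 and 180 CPM (log2 0.62), and Rpl39 at 224 and 319 CPM (log2 0.51). Rpl5 was lowest, at 65.6 and 59.3 CPM (log2 −0.15, −0.56 to 0.27), then Rpl7l1 (−0.059, −0.40 to 0.28) and Rpl35a (0.0016, −0.36 to 0.36). Without well 1 of the ΔTE library the ratio of the shares was 0.14. Cells of the NK and innate lymphoid list made up 13.0% of WT and 24.0% of ΔTE cells, and that list summed to 1697 and 3044 CPM. The stromal list summed to 754 and 336 CPM. The log2 ratio was 0.29 both without the stromal group and in cells on no lineage list.

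In this comparison 10 of 32 tested translation factors were higher past the fold and 0 lower, with a median of 0.17. Of all tested genes, 13.7% were higher and 12.3% lower. Eif3g, a subunit of an initiation factor, stood at 106 and 137 CPM (log2 0.37), and Eif3a, the largest subunit of the same factor, at 410 and 348 CPM (log2 −0.23). Fau and Rack1 had 0.19 and 0.11. Of 28 tested biogenesis genes 1 was higher and 1 lower, from Rrp1b (−0.27) to Rrn3 (0.28), and of 25 tested mitochondrial ribosomal protein genes 4 were higher and 2 lower. The 3 genotype comparisons use different libraries, and whether they differ from each other could not be tested with 1 library per condition.

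With the genotypes paired by start, the share was higher in ΔTE in 3 of 3 pairs, by a mean of 0.14 on the log2 scale (SD 0.13, n = 3 pairs; two-sided exact permutation test over the signs of the pairs, p = 0.25). This p is the smallest that 3 pairs can give. Without well 2 of ΔTE DN2a the mean was 0.056, with 2 of 3 pairs higher (exact permutation p = 0.75). The pairs differ in start, and no test of single genes over the pairs was run.

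**Figure D2:**
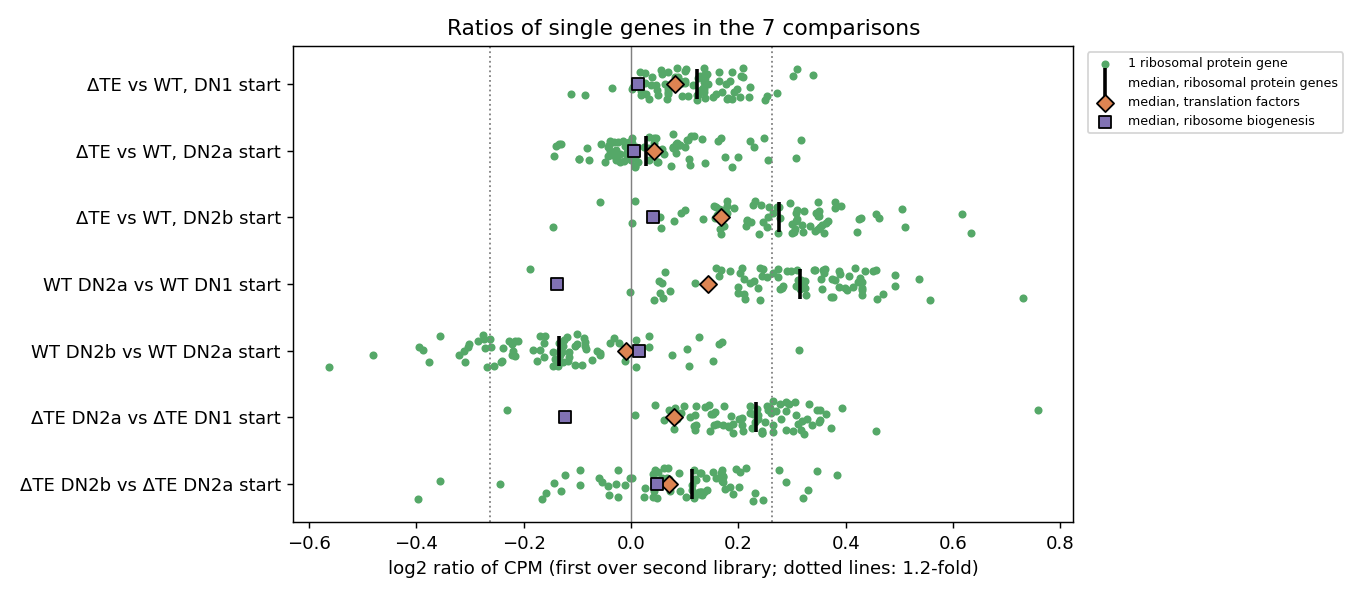
Log2 ratio of CPM (horizontal axis) in each of the 7 comparisons (vertical axis). Each green point is 1 ribosomal protein gene with at least 200 UMIs in the 2 libraries, black bars are their medians, and the other symbols are medians of translation factors and ribosome biogenesis genes. The medians of ribosomal protein genes lie at 0.31 for WT DN2a over WT DN1 and at −0.14 for WT DN2b over WT DN2a.

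Within ΔTE, the share was higher after the DN2a than the DN1 start by 0.22 (0.21 to 0.23), in 6 of 9 pairs of wells. Past the fold, 29 of 81 genes were higher and 0 lower, beside 13.3% and 14.9% of all tested genes. Without well 2 of ΔTE DN2a the ratio was −0.037. Rpl7l1 had the lowest ratio, at 87.5 and 74.5 CPM. Of 36 biogenesis genes, 0 were higher and 7 lower, with a median of −0.12. From DN2a to DN2b the ratio was 0.10 (0.088 to 0.12), with 6 of 80 genes higher and 2 lower, beside 13.5% and 16.1% of all tested genes. It was −0.11 without well 1 of ΔTE DN2a and −0.042 without well 1 of ΔTE DN2b. The stromal group made up 1.39%, 5.25% and 1.32% of cells in ΔTE DN1, DN2a and DN2b, and without it the 2 ratios were 0.17 and 0.15.

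Well 2 of ΔTE DN2a stood apart from the other wells of that library. Its share was 4.12% against 2.41% and 2.63%, a log2 difference of 0.73 (0.71 to 0.74). All 79 genes tested between wells were past the fold higher there, beside 30% of all tested genes. Rpl4 stood at 1365 CPM in this well and at 873 and 964 in the other wells. Rps12 stood at 1088 CPM against 556 and 600, and Rpl41, the smallest ribosomal protein, at 793 against 423 and 469. In the same well translation factors summed to 16419 CPM against 11508 and 12250, and biogenesis genes to 5900 against 5525 and 5522. Mitochondrial ribosomal protein genes summed to 4646 CPM against 3433 and 3599.

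Other measures moved with this well. Stromal list genes summed to 2976 CPM in well 2 and to 517 and 334 in the other wells, and mitochondrial genes took 17.2% of UMIs against 22.3% and 24.0%. Among cells with no UMI of a stromal marker the ribosomal protein share of well 2 was still 3.89%, against 2.38% and 2.59%. Among barcodes with under 200 genes it was 4.42% against 3.23% and 3.50%. In cells of over 20% mitochondrial UMIs it was 4.43% against 2.39% and 2.59%. Well 1 of ΔTE DN2b had a similar but smaller excess, with 50 of 61 genes past the fold higher beside 18% of all tested genes, and a share of 3.68% in cells without stromal UMIs.

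**Figure D3:**
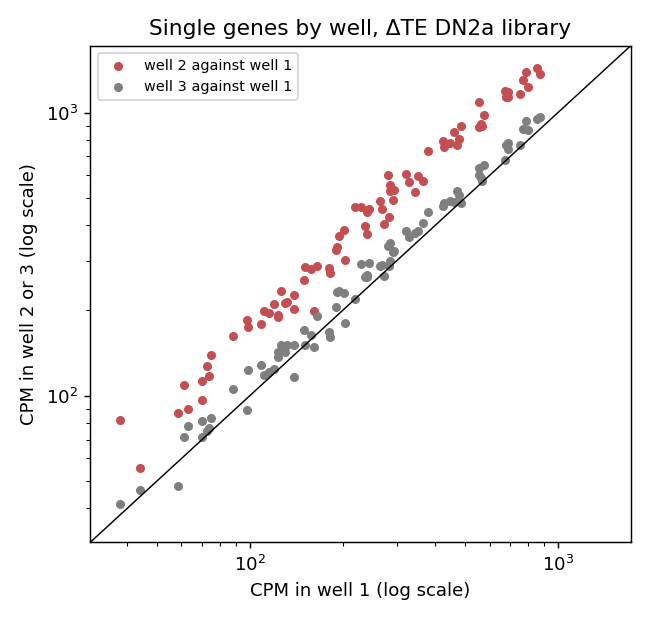
CPM of single ribosomal protein genes in wells 2 and 3 (vertical axis, log scale) against well 1 (horizontal axis, log scale) of the ΔTE DN2a library, for genes with at least 200 UMIs in the library; the line marks equal values. Points of well 2 lie above the line, as for Rpl4 at 1365 against 873 CPM.

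Cells were also grouped by marker lists, a group being cells with at least 2 UMIs on 1 lineage list and fewer than 2 on every other. Groups with under 50 cells in a library have no value there. Most cells, from 57.0% in ΔTE DN2a to 69.6% in WT DN1, had fewer than 2 UMIs on every list. The stromal list (collagens, Sparc, Postn and other matrix genes) marked cells with the highest share of ribosomal protein UMIs. Their share was 3.60% in WT DN1, 4.21% in WT DN2a, 3.35% in WT DN2b, 3.17% in ΔTE DN1 and 4.69% in ΔTE DN2a. The other cells of these libraries had 2.32%, 2.76%, 2.59%, 2.54% and 2.86%, so that stromal cells were higher in 5 of 5 libraries.

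Most single genes were higher in stromal cells, with 75 of 82 ratios above 0, but a few were lower. Against the number of UMIs expected from the other cells of the same libraries, 67 of 82 genes were past the fold higher and 6 lower, beside 23.9% and 56.4% of all tested genes. Rps12 had the highest ratio, with 2454 UMIs observed and 862 expected (log2 1.51, 1.45 to 1.57), higher in 5 of 5 libraries. Rpl39 had 1.50 (1.41 to 1.59) and Rpl41 had 1.47 (1.40 to 1.54). Rps3a1 had the lowest, with 85 UMIs observed and 215.5 expected (log2 −1.34, −1.67 to −1.04), higher in 0 of 5 libraries. Rpl21 had −0.86 (−1.14 to −0.59) and Rps3 −0.45 (−0.59 to −0.31). The median of all tested genes was −0.41, so that Rps3 lay near it. Of 36 biogenesis genes 0 were higher and 27 lower in stromal cells, with a median of −0.59 against −0.41 for all genes. Of 34 translation factors 9 were higher and 9 lower.

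**Figure D4:**
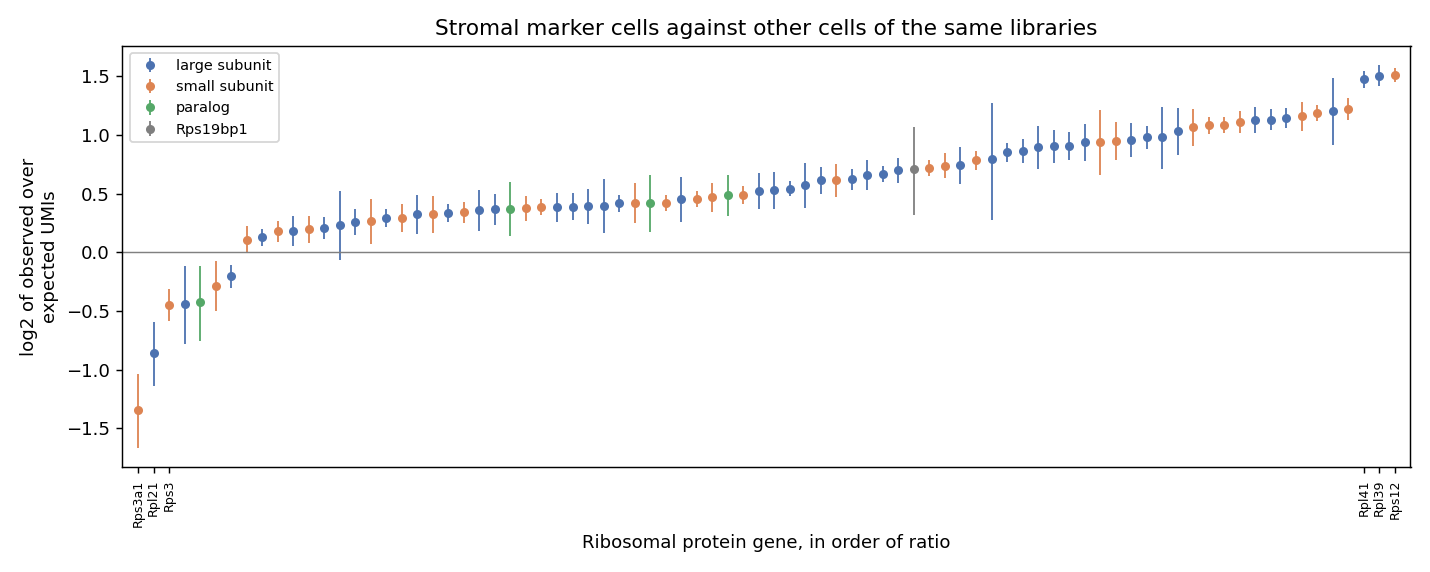
Log2 of observed over expected UMIs (vertical axis) of each ribosomal protein gene (horizontal axis, in order of ratio, with the 3 lowest and 3 highest named) in cells of the stromal marker group, with expected values from other cells of the same 5 libraries. Bars are exact 95% intervals for counting error. Rps3a1 is lowest at −1.34 and Rps12 highest at 1.51.

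Cells with myeloid markers, given in 2 libraries, had a share of 1.84% against 2.36% in WT DN1 (log2 −0.36, −0.42 to −0.30) and 2.20% against 2.56% in ΔTE DN1 (log2 −0.22, −0.28 to −0.15). With at least 3 marker UMIs per cell the shares were 1.55% and 1.89% and the log2 ratios −0.61 and −0.44. In cells thinned to 300 UMIs the log2 ratios were −0.54 and −0.42. Of 69 genes, 0 were higher and 38 lower past the fold in myeloid cells, beside 17.7% and 32% of all tested genes. Rps23 was lowest (log2 −0.94, −1.95 to −0.10) and Rps6 highest (0.23, −0.27 to 0.70). Cells with T-cell markers (Cd3, Rag and other genes) had shares of 2.27% to 3.03% over 5 libraries, with log2 ratios to other cells from −0.080 to 0.029. Of 80 genes 2 were higher and 7 lower, beside 13.5% and 21.1% of all tested genes. Cells of the NK and innate lymphoid list, 54.9% of whose UMIs were Gzma, had ratios from −0.093 to 0.052, and 0 of 82 genes were higher and 1 lower, beside 3.61% and 12.6% of all tested genes. Cells of the progenitor list had ratios from −0.22 to 0.025, with 1 of 80 genes higher and 9 lower, beside 11.5% and 15.9%. In cells of the MHC class II list 17 genes could be tested, and 0 were higher and 10 lower, beside 16.5% and 57.6%.

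Mast cell and basophil markers, 97.3% of whose UMIs were Cpa3, marked cells with log2 ratios from −0.19 in ΔTE DN2a to −0.016 in WT DN1. In ΔTE DN1 the ratio was −0.036, and it was −0.22 with at least 3 marker UMIs and −0.11 in thinned cells. Of 81 genes 0 were higher and 10 lower, beside 8.21% and 15.7% of all tested genes. The mitotic list was an axis of its own. Cells with at least 2 UMIs on it were set against cells with no UMI on it, and cells in between were in neither set. The log2 ratios were −0.0095 and 0.0099 in the DN1 libraries, −0.15 and −0.22 in the DN2a libraries, and −0.088 and −0.085 in the DN2b libraries, WT first. Of 82 genes 0 were higher and 5 lower in mitotic cells, beside 7.94% and 15.2% of all tested genes. Rpl39 (log2 −0.38, −0.43 to −0.33) and Rps27 (−0.37, −0.44 to −0.31) were lowest in mitotic cells, and Rps3a1 (0.15, 0.08 to 0.21) and Rpl21 (0.14, 0.07 to 0.21) were highest. Rps3a1 and Rpl21, highest in mitotic cells, were the lowest in stromal cells. Cells without mitotic markers had more stromal UMIs, with 3721 CPM of the stromal list against 792 in mitotic cells of WT DN2a. The part of stromal cells in the mitotic ratios was not tested.

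**Figure D5:**
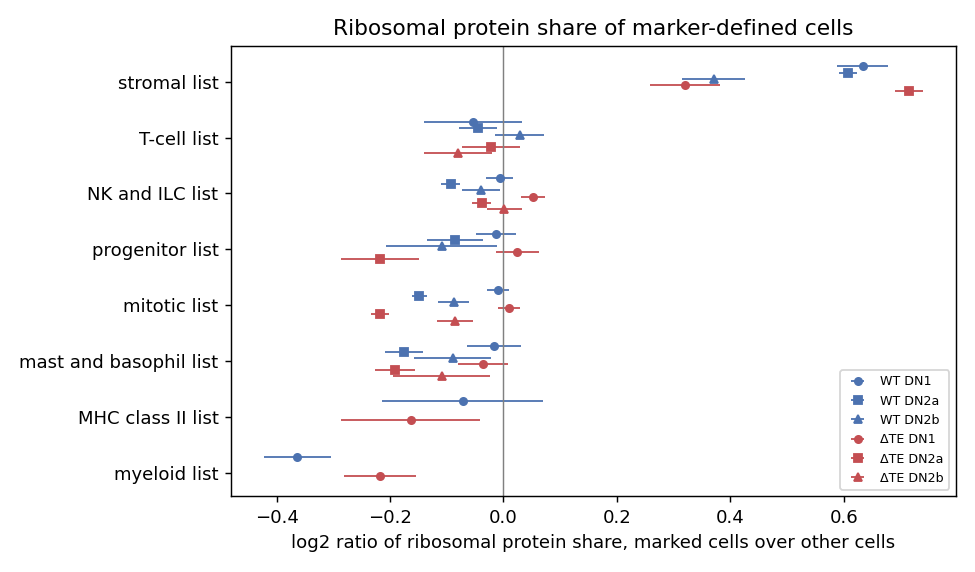
Log2 ratio of the ribosomal protein share in cells of a marker group over the other cells of the same library (horizontal axis) for each marker list (vertical axis); colors are genotypes, symbols are starts, and bars are exact 95% intervals for counting error. For the mitotic list, the other cells are only those with no UMI on that list. Stromal cells lie between 0.32 and 0.71, and myeloid cells at −0.36 and −0.22.

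Genotype and start values could also be compared inside marker groups. After the DN2b start ΔTE exceeded WT on the log2 scale by 0.32 (0.28 to 0.36) in cells of the NK and innate lymphoid list, 0.18 (0.11 to 0.25) in cells of the T-cell list and 0.29 (0.26 to 0.31) in cells below 2 UMIs on every list. After the DN1 start it was 0.17 (0.14 to 0.19) in cells of the NK and innate lymphoid list, 0.26 (0.17 to 0.34) in myeloid cells and −0.18 (−0.26 to −0.11) in stromal cells. For WT DN2a over WT DN1 it was 0.32 (0.23 to 0.42) in cells of the T-cell list, 0.24 (0.18 to 0.30) in cells of the progenitor list and 0.23 (0.22 to 0.24) in cells on no list. These values share their libraries and are not independent of the comparisons above.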

How the data were processed

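The authors deposited UMI counts per gene and barcode, without normalization and before filters on cells. The submitters' processing notes name mm9. The aligner, the counter and the treatment of reads that match several genes are not given in the sources used here. Barcodes were filtered by the limits of the study's methods (at least 200 genes, at most 2000 UMIs, at most 30% mitochondrial UMIs), and no doublet caller was run. UMIs were summed per library, well and marker group and divided by totals without mitochondrial genes. Wells were read from barcode names and are not described in the labels. Exact intervals (scipy 1.17.1, at 95%) were Clopper-Pearson for shares and conditional binomial for ratios, and cover counting error only. TMM factors came from edgeR 4.0.16. Scripts were tested on simulated data. Conditions had 1 library each and were compared without a test; the genotypes paired by start were tested by an exact permutation over the signs of the 3 pairs, added after seeing the data.

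The genes, lists and comparisons were chosen with earlier results of these data known. The named genes are those with the 3 highest and 3 lowest ratios in a comparison between genotypes, the 10 with the most UMIs, the 2 highest and 2 lowest of each marker group, paralogs with their partners, and a few others described for their values. Some of these are not reported here. Of the genes named in comparisons between starts, some were chosen after their values were seen, as were the motifs and strands searched, the stretches printed and the limits for shared sequence. Alternatives were other filters on cells, totals and scaling, thinned cells, and leaving out each well. Leaving out the stromal group, taking medians of wells and leaving marker genes out of the total were added after seeing the data. Promoters came from RefSeq (GRCm38.p6) and transcripts from GENCODE M21, matched by symbol and Ensembl identifier.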

Additional observations from a re-analysis of the deposited data

Results flagged for a closer look

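Barcodes that the filters left out also held ribosomal protein UMIs. Each left-out set in ΔTE was compared with the same left-out set in WT of the same start. In 6 of 9 sets the share of non-mitochondrial UMIs was higher in ΔTE by more than counting error. In barcodes with over 30% mitochondrial UMIs the share was 3.24% in ΔTE DN1, beside 2.77% in WT DN1, and 3.61% in ΔTE DN2b, beside 3.17% in WT DN2b. In barcodes with under 200 genes it was 3.39% in ΔTE DN1, 3.75% in ΔTE DN2a and 3.80% in ΔTE DN2b, beside 3.21%, 3.50% and 3.19% in WT. In barcodes with over 2000 UMIs it was 4.23% in ΔTE DN2b, beside 3.52% in WT DN2b. In 2 of the other 3 sets it was below WT by more than counting error. In ΔTE DN2a it was 3.05% in barcodes with over 30% mitochondrial UMIs, beside 3.62% in WT DN2a (log2 −0.25, −0.28 to −0.21), and 3.76% in those with over 2000 UMIs, beside 3.95% (log2 −0.072, −0.10 to −0.042). In ΔTE DN1 barcodes with over 2000 UMIs it was 3.33%, beside 3.29% in WT DN1 (log2 0.018, −0.010 to 0.046). These are single libraries, and the differences were not tested.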

How the results depend on the processing

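Values below are log2 ratios of the ribosomal protein share, and the causes of changes were not tested. With at most 10% mitochondrial UMIs, ΔTE over WT was −0.40 (DN1 start), 0.49 (DN2a) and 0.62 (DN2b), WT DN2a over DN1 −0.076, WT DN2b over DN2a −0.0011, ΔTE DN2a over DN1 0.82 and ΔTE DN2b over DN2a 0.13. With no mitochondrial limit, ΔTE over WT after the DN1 start was 0.14, and the 4 comparisons between starts, in the same order, were 0.23, −0.044, 0.12 and 0.20. With mitochondrial UMIs in the total they were 0.46, −0.30, 0.24 and 0.063, and ΔTE over WT after the DN2a start was −0.098. With at least 300 genes the latter was −0.0013, ΔTE DN2a over DN1 0.20 and ΔTE DN2b over DN2a 0.12. In cells on no lineage list the DN2a genotype ratio was 0.048 and the 4 comparisons between starts were 0.23, −0.081, 0.16 and 0.16. With TMM scaling ΔTE DN2a over DN1 was 0.20 and ΔTE DN2b over DN2a 0.13. Without the stromal group, an alternative chosen after seeing the data, ΔTE over WT was 0.13 (DN1) and 0.050 (DN2a), and the comparisons between starts were 0.25, −0.090, 0.17 and 0.15. With medians of wells, also chosen after seeing the data, ΔTE over WT was 0.16, −0.15 and 0.20, WT DN2a over DN1 0.34, ΔTE DN2a over DN1 0.026 and ΔTE DN2b over DN2a 0.20.

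Leaving out 1 well at a time gave 0.078 to 0.18, −0.23 to 0.25 and 0.14 to 0.38 for ΔTE over WT after the DN1, DN2a and DN2b starts. It gave 0.27 to 0.37 for WT DN2a over DN1, −0.16 to −0.15 for WT DN2b over DN2a, −0.037 to 0.44 for ΔTE DN2a over DN1 and −0.11 to 0.36 for ΔTE DN2b over DN2a. The mean of ΔTE over WT paired by start, added after seeing the data, ran from 0.056 to 0.22 when 1 well was left out, and was between 0.067 and 0.24 under the other settings, with exact permutation p-values from 0.25 to 0.75. Thinning to 300 UMIs turned 3 marker group ratios, to 0.029 (T-cell list, WT DN2a), 0.035 (T-cell list, ΔTE DN2b) and 0.016 (NK and innate lymphoid list, ΔTE DN2a), moved 13 others beyond their counting intervals and left 16 within them, and a minimum of 3 marker UMIs moved 7 and left 25. Core genes alone, a limit of 2000 genes in place of 2000 UMIs and a total without Lars2 moved none of the 7 comparisons beyond its counting interval. Without the minimum of 200 UMIs, 3, 3 and 2 genes were lower past the fold in ΔTE than in WT after the DN1, DN2a and DN2b starts, 2 for WT DN2a over DN1 and 1 for ΔTE DN2a over DN1, against 0 in each with the minimum. These genes held under 200 UMIs in the 2 libraries together, so that their ratios rest on low counts. The share of all genes past the fold without the minimum is not given here, and the counts are not read as lowered genes.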
